A study of Mus musculus with 4 samples.

Results

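The genes of the respiratory chain and of ATP synthase were described in Purkinje cells, the large inhibitory neurons that carry the output of the cerebellar cortex. These are the nuclear genes of the complexes that carry electrons from NADH and succinate to oxygen and that use the resulting proton gradient to make ATP. They were taken as all genes measured by a probe set with a single gene symbol that began with Nduf, Uqcr or Atp5, that was Sdha, Sdhb, Sdhc or Sdhd, that began with Cox and a digit from 4 to 8, or that was Cycs or Cyc1. The rule found 92 of 18193 named genes, on 184 probe sets. They comprised 34 subunit genes of complex I, 8 complex I assembly factors (Ndufaf), 4 genes of complex II, 9 of complex III with Cyc1, the gene of cytochrome c, 19 of complex IV and 17 of complex V. Ndufa4 and Ndufa4l2 were counted with complex IV, of which the Ndufa4 protein is now regarded as a subunit. The rule selects by name, so the Ndufaf factors stand apart from the subunits throughout.

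Purkinje cells were cut by laser from frozen sagittal brain sections of untreated male C57BL/6J mice at 8 weeks of age. There were 4 samples in 1 group, named by animal and sample as 1-1, 1-2, 2-1 and 2-2, so that 2 samples came from each of 2 animals. Whether the samples of an animal were captured separately is not stated, and p-values therefore measure only the spread between these samples, which may be technical. RNA of about a nanogram was amplified in 2 cycles and hybridized to Affymetrix expression arrays, on which a probe set is a group of short probes that reports a transcript. Levels are quantile-normalized log2 signals, given for each gene from its probe set with the highest mean. Since equal amounts of RNA can give unequal signals on different probe sets, a brighter gene is not read as a more abundant RNA.

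Complex I oxidizes NADH and complex II, the succinate dehydrogenase of the citric acid cycle, oxidizes succinate. Both pass electrons through ubiquinone to complex III, from where the small soluble protein cytochrome c carries them to complex IV, cytochrome c oxidase, which reduces oxygen. Complexes I, III and IV pump protons, and complex V lets them flow back through its membrane ring to drive the rotary synthesis of ATP. Purkinje cells fire spontaneously and at high rates, and restoring their ion gradients depends heavily on this supply. Several subunits of complex IV exist as alternative isoforms, some of them used in most tissues and others mainly in heart and skeletal muscle, lung or testis.

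The arrays and the captured cells were checked first. Median deposited signals of the arrays were 8.40, 8.50, 9.60 and 11.4 in the order 1-1, 1-2, 2-1 and 2-2, so both arrays of animal 2 were brighter, and so were 9 probe sets for hybridization controls, with a median ratio of 1.93 between the animals. The ratio of 3′ to 5′ signal, a sign of RNA length, was for Gapdh 11.4 and 9.09 in animal 1 and 6.26 and 8.45 in animal 2, and for Actb 35.3 and 28.1 in animal 1 and 9.86 and 24.6 in animal 2. Of the Purkinje cell markers measured, 11 of 11 lay above background on all 4 arrays. So did 4 of 11 granule cell markers, 8 of 12 markers of Bergmann glia and astrocytes, 2 of 9 of oligodendrocytes and 2 of 7 of interneurons, but 0 of 7 markers of microglia, 0 of 7 of vessels and 0 of 2 of red blood cells. In captured tissue, fewer cells of a type and less RNA per cell cannot be told apart, and a share of the signals of genes that every cell uses can come from these neighbours, a part that was not tested.

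Most of these genes gave a clear signal in the captured Purkinje cells. Background was judged from 69 genes known from liver, muscle, testis and further organs outside the brain. Their 95th percentile on an array served as its bound, which lay at 6.36, 6.05, 6.21 and 5.84 on the log2 scale in the order of samples. Of the 92 genes, 79 (85.9%) lay above the bound on all 4 arrays, beside 25.3% of all named genes. A further 7 passed it on 1 to 3 arrays and 6 on none. Complexes III and V were complete in this sense, with 9 of 9 and 17 of 17 genes above the bound on all 4 arrays, and Cycs passed as well. The counts were 32 of 34 for complex I, 6 of 8 for its assembly factors, 3 of 4 for complex II and 11 of 19 for complex IV, whose missing genes were mainly tissue-restricted isoforms. With the bound at the 99th percentile 75 of the 92 genes still passed, beside 18.0% of all named genes. In 11 of the 92 genes the brightest probe set was among the 100 brightest probe sets of every array.

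**Figure D1:**
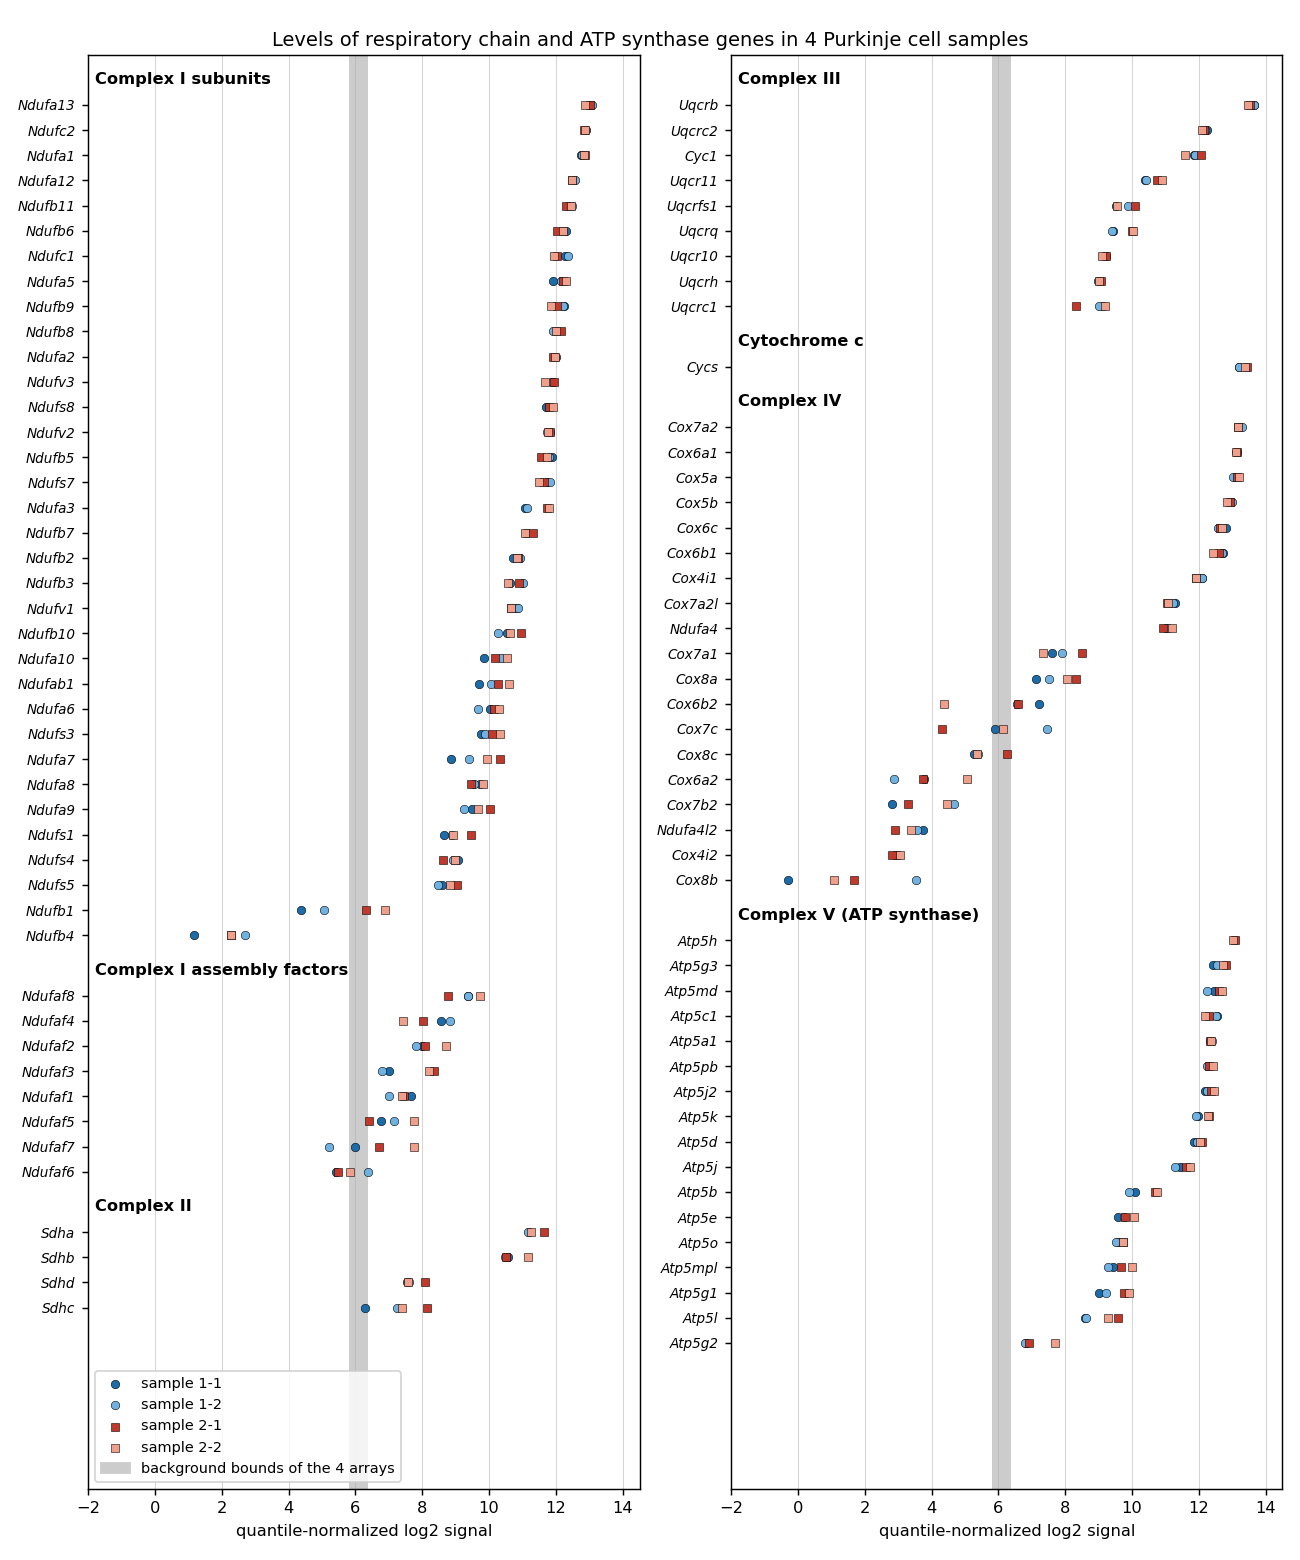
Levels of all 92 genes by complex, as quantile-normalized log2 signal on the horizontal axis, with circles for the 2 samples of animal 1, squares for the 2 samples of animal 2 and a grey band over the background bounds of the 4 arrays. Bright genes such as Uqcrb and Cycs show 4 points almost on top of each other, dim ones such as Sdhc spread widely, and most points left of the band belong to complex IV isoforms.

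The promoters of these genes were read for letters that regulators of mitochondrial biogenesis are known to bind. Nuclear respiratory factor 1 (NRF1) was first described on the promoter of the cytochrome c gene, GABP (also called NRF2) is a member of the ETS family that acts on complex IV genes, and YY1 acts with the coactivator PGC-1alpha on many mitochondrial genes. The core letters searched on both strands were GCGCATGC for NRF1, CCGGAAG for ETS factors and AAGATGGC for YY1. The NRF1 core lies in a palindrome, so that a promoter can hold it on both strands over shared bases. RefSeq promoters of GRCm38.p6, from 250 bases before to 50 after the start, were matched for 75 of the 92 genes (80 promoters). The 4 upstream stretches of 250 bases shown here belong to Cycs, to Atp5k, which was called between the animals, and to Cox6a1 and Sdhb, members of complexes IV and II. They lie at chr6:50566570-50566819 (minus strand), chr5:108434400-108434649 (minus), chr5:115348959-115349208 (minus) and chr4:140961021-140961270 (plus), are written from 5′ to 3′ along the gene, and capitals mark NRF1 and ETS cores on either strand.
Cycs: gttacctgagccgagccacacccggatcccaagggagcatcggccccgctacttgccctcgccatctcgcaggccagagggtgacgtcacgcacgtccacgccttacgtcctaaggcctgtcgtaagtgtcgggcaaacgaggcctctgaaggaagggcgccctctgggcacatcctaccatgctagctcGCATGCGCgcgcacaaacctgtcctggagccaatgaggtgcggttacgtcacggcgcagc
Atp5k: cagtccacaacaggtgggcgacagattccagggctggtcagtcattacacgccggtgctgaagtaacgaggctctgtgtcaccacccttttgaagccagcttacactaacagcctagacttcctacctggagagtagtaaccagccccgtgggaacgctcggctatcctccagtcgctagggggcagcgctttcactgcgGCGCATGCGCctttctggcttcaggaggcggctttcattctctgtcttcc
Cox6a1: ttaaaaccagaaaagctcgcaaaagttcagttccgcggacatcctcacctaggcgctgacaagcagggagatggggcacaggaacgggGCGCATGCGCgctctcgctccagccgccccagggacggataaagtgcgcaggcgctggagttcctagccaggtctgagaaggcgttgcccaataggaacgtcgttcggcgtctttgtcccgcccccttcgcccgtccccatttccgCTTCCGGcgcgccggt
Sdhb: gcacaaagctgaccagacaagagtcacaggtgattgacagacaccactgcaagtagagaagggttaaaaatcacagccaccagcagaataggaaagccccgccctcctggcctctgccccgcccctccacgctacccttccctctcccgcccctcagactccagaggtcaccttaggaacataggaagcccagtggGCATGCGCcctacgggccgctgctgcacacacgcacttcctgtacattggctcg
In Cycs the NRF1 core began 60 bases before the start. In Atp5k and Cox6a1 it was present on both strands, with first bases 50 and 162 bases before the start, and Cox6a1 also held an ETS core 16 bases before it.

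The NRF1 core was present in 12 of the 80 promoters (15.0%), beside 3.52% of 21263 protein-coding promoters and 2.71% of all 32851 promoters of the same length. The ETS core was present in 19 (23.8%), beside 11.6% and 8.86%. The YY1 core was present in 10 (12.5%), beside 3.05% and 2.75%. Promoters of these genes were richer in G and C, with a median of 59.0% beside 56.3% in protein-coding promoters. They also held the letters CG, which are part of the NRF1 and ETS cores, more often, with a median count of 20 beside 13. Among protein-coding promoters within the middle GC range of the 80, the NRF1, ETS and YY1 cores were present in 4.90%, 16.2% and 4.07%, and among the 42 promoters of these genes in that range in 11.9%, 21.4% and 16.7%. The count of CG was not matched by this range, with medians of 20.5 in the 42 promoters and 16 in the protein-coding ones. These shares are descriptions without a test, and a match is no proof of binding.

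Members of most complexes carried such letters. At least 1 of the 3 cores was present in 9 of 18 promoters of complex V, 12 of 33 of complex I and 3 of 13 of complex IV. Both the NRF1 and the ETS core were found in Atp5k, Atp5l, Cox6a1, Sdhb and Uqcr11. The ETS cores of Atp5k and Sdhb began at bases 13 and 7 after the start, outside the stretches printed above. The YY1 core was in 6 promoters of complex I, those of Ndufa3, Ndufa9, Ndufb8, Ndufc1, Ndufs4 and Ndufs7. It was also in 3 of complex V and 1 of a complex I assembly factor, and in 0 of 13 promoters of complex IV. With 3.05% of protein-coding promoters holding it, 13 promoters are too few to show a lack. The YY1 core lay between 11 and 39 bases after the start in 8 of the 10 promoters with it, the others being those of Atp5j and Atp5pb.

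**Figure D2:**
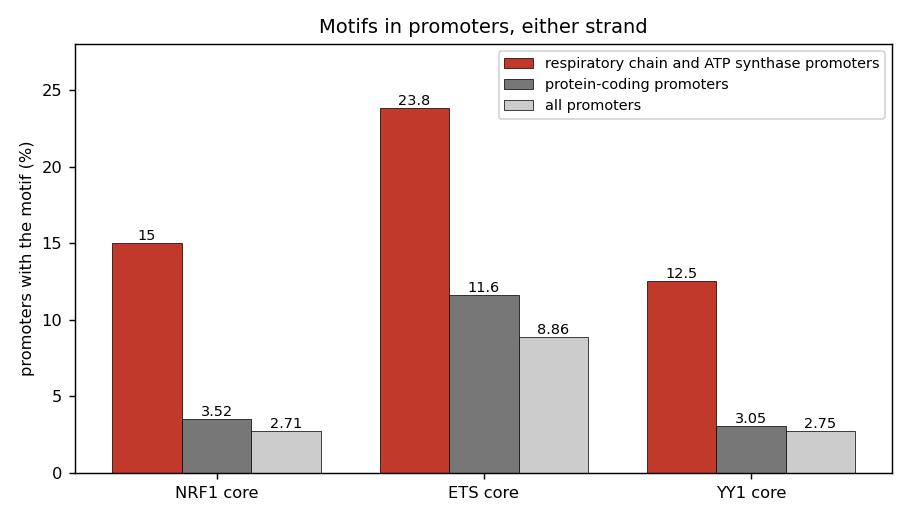
Share of promoters, in percent, that hold the NRF1, ETS or YY1 core letters on either strand, with bars from 0 for the 80 promoters of respiratory chain and ATP synthase genes, for protein-coding promoters and for all promoters. The red bars stand at 15.0%, 23.8% and 12.5%, each above both grey bars beside it.

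Complex I was measured through 34 subunit genes, of which 32 lay above the bound on all 4 arrays. The brightest probe set was that of Ndufa13, an accessory subunit also known as GRIM-19, at 12.99, 13.07, 13.01 and 12.87 in samples 1-1, 1-2, 2-1 and 2-2 (12.98 ± 0.06, SD, n = 2 animals). Ndufc2, a membrane-arm subunit, stood at 12.89, 12.86, 12.85 and 12.86 in that order. Ndufa1, whose human counterpart is X-linked, gave 12.73, 12.77, 12.87 and 12.85. In these genes the 4 samples lay close together, and only for Ndufa1 did both samples of animal 2 stand above both of animal 1. Ndufa12 stood at 12.53, 12.57, 12.48 and 12.47, with both samples of animal 2 lower.

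The measured core subunits that hold the redox centres were all above the bound. Ndufv1, which binds NADH and flavin, stood at 10.84, 10.86, 10.65 and 10.66. Ndufs1, the largest iron-sulfur subunit, gave 8.66, 8.90, 9.47 and 8.92. Ndufv2, Ndufs3, Ndufs7 and Ndufs8, also parts of the catalytic core, had means of 11.78, 10.01, 11.68 and 11.80. In all 4 samples each of them passed the bound, and none was called between the animals.

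At the lower end of complex I, Ndufb1, a small membrane-arm subunit, gave 4.39 and 5.06 in animal 1 and 6.33 and 6.90 in animal 2. It passed the bound in both samples of animal 2 and in neither of animal 1, so a difference between the animals follows from the way it entered the test. Ndufb4, another accessory subunit, stood at 1.16, 2.69, 2.27 and 2.27, below the bound on all 4 arrays. Both genes had a single probe set, so these are statements about that probe set.

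The Ndufaf assembly factors, which help to build complex I but are not part of it, passed the bound on all arrays in 6 of 8 cases. Ndufaf8 stood at 9.38, 9.37, 8.76 and 9.72, Ndufaf4 at 8.57, 8.82, 8.01 and 7.43. Ndufaf2 gave 8.00, 7.82, 8.09 and 8.70, and Ndufaf3 gave 7.01 and 6.81 in animal 1 and 8.35 and 8.21 in animal 2. Ndufaf3 and Ndufaf4 thus went opposite ways between the animals, neither past the test (1.37 ± 0.31, SE, adjusted p = 0.10, and -0.97 ± 0.32, adjusted p = 0.178, limma). At the lower end, Ndufaf7 stood at 6.00, 5.21, 6.71 and 7.77, above the bound only in animal 2, and Ndufaf6 at 5.42, 6.39, 5.47 and 5.84, above it only in sample 1-2.

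Complex II, the only complex with no subunit encoded in mitochondrial DNA, has a catalytic head of Sdha and Sdhb and a membrane anchor of Sdhc and Sdhd. Sdha, the flavoprotein, stood at 11.19, 11.16, 11.65 and 11.26. Sdhb, the iron-sulfur protein whose promoter is printed above, gave 10.57, 10.47, 10.50 and 11.18, high in sample 2-2 alone. Of the anchor genes, only Sdhd passed the bound on all arrays. It stood at 7.53, 7.61, 8.07 and 7.58, and Sdhc at 6.29, 7.26, 8.13 and 7.41, which left Sdhc under the bound in sample 1-1.

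Complex III passes electrons from ubiquinol to cytochrome c, and all 9 of its genes lay above the bound on all 4 arrays. Uqcrb, the ubiquinone-binding subunit, was the brightest of the 92 genes, at 13.64, 13.64, 13.54 and 13.47. Uqcrc2, a core protein, stood at 12.24, 12.17, 12.15 and 12.10, and Cyc1, the cytochrome c1 heme protein, at 11.86, 11.88, 12.07 and 11.60. These 3 genes stayed within 0.5 across all samples. Uqcr11 stood at 10.40, 10.41, 10.75 and 10.89, with both samples of animal 2 higher. The dimmest were Uqcrh, the hinge protein, at 8.98, 9.05, 9.08 and 9.01, and Uqcrc1, the other core protein, at 9.14, 9.00, 8.33 and 9.18. Cycs, the gene of cytochrome c itself, stood at 13.20 and 13.19 in animal 1 and at 13.44 and 13.38 in animal 2.

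In complex IV the genes fell into a bright set and a dim one. Cox7a2 stood at 13.23, 13.28, 13.17 and 13.17, Cox6a1 at 13.11, 13.14, 13.15 and 13.11, Cox5a at 13.09, 13.02, 13.14 and 13.19, and Cox5b at 12.91, 12.98, 12.92 and 12.84. On its brightest probe set each of these nuclear subunits stood at nearly the same level in the 4 samples. They surround the catalytic core encoded in mitochondrial DNA. Dimmer probe sets of Cox6a1 (1417418_s_at) and Cox5a (1448153_at) stood higher in animal 2, by 0.56 ± 0.15 and 0.42 ± 0.10 (SE). Neither was called. Another of Cox5a, 1439267_x_at, gave 0.03 ± 0.07. Those of Cox7a2 and Cox5b above the bound on all arrays gave -0.13 to 0.11. Cox7a2l, which takes part in joining complexes into supercomplexes, had a mean of 11.15 ± 0.14. The 2 dimmest were Cox4i2, at 2.99, 2.91, 2.81 and 3.06, and Cox8b, at -0.30, 3.55, 1.67 and 1.10, both below the bound on all arrays.

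The dim set consisted mainly of tissue-restricted isoforms. Of the 8 listed, 5 were below the bound on all 4 arrays, among them Cox6a2 and Cox8b of heart and skeletal muscle, Cox4i2, known from lung and low oxygen, and Cox7b2. Cox6a2 stood at 3.79, 2.86, 3.74 and 5.05, Cox7b2 at 2.81, 4.68, 3.31 and 4.46, and Ndufa4l2, an isoform known from low oxygen, at 3.74, 3.56, 2.92 and 3.40. The testis isoform Cox8c gave 5.28, 5.39, 6.27 and 5.36, above the bound only in sample 2-1. The testis isoform Cox6b2 gave 7.22, 6.56, 6.58 and 4.36, above the bound in every sample but 2-2.

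Cox7a1, the form of subunit 7a known from heart and skeletal muscle, was the exception. It stood at 7.61, 7.90, 8.50 and 7.34, above the bound on all 4 arrays, from a single probe set. Its widely used partner Cox7a2 was bright, as were Cox4i1 (12.00 ± 0.13), Cox6b1 (12.60 ± 0.13) and Ndufa4 (11.05 ± 0.01), and all 6 partners measured were above the bound on all arrays. Cox8a was the dimmest of these partners, at 7.12, 7.51, 8.32 and 8.05, on a probe set that can bind several transcripts. Without such probe sets Cox8a fell below the bound on some array. Cox7c, a widely used subunit with no isoform listed, stood at 5.89, 7.44, 4.32 and 6.13, above the bound in samples 1-2 and 2-2, on a probe set of the same kind.

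**Figure D3:**
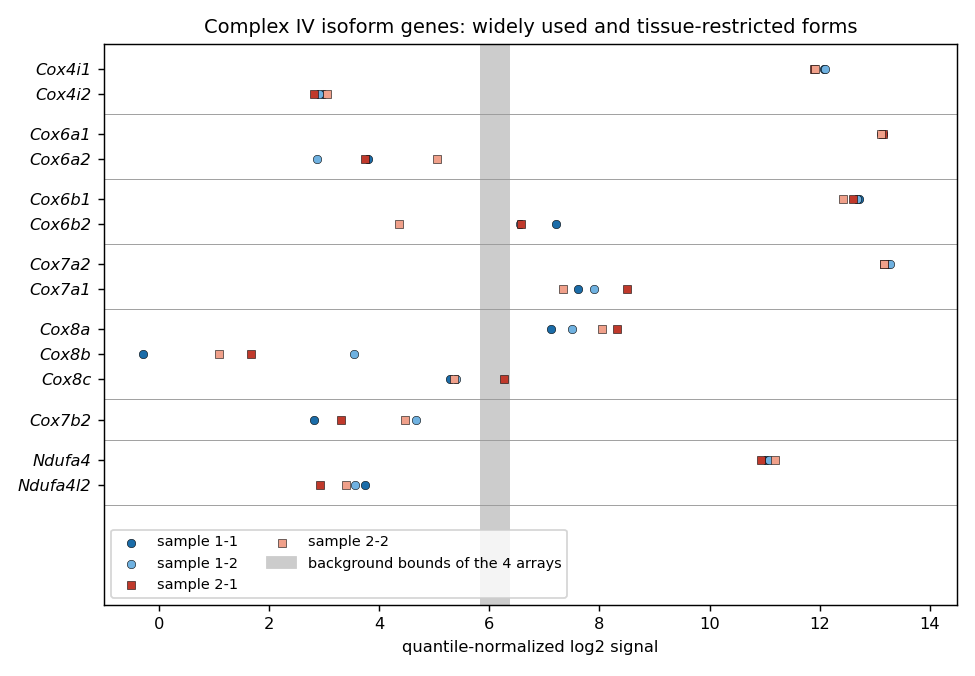
Widely used and tissue-restricted isoform genes of complex IV, each with its 4 samples on an axis of quantile-normalized log2 signal, grouped by subunit, with the background bounds in grey. Cox7a1 is the tissue-restricted form whose 4 points all lie right of the band, at 7.34 to 8.50.

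All 17 genes of complex V, the ATP synthase, were above the bound on all 4 arrays. The brightest was Atp5h, the d subunit of the peripheral stalk, at 13.06, 13.06, 13.07 and 13.01. Atp5g3 stood at 12.41 and 12.53 in animal 1 and at 12.82 and 12.72 in animal 2. Atp5md, a small subunit linked to dimers of the enzyme, gave 12.46, 12.25, 12.61 and 12.68. Both samples of animal 2 thus stood higher for Atp5g3 and Atp5md but not for Atp5h. Atp5c1, the gamma subunit of the central rotor, went the other way, at 12.54, 12.52, 12.31 and 12.19. Among the catalytic head genes, Atp5a1 (alpha) stayed at 12.34, 12.38, 12.34 and 12.37, while Atp5b (beta) gave 10.09, 9.91, 10.67 and 10.74.

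The c subunit of the proton-driven ring is encoded by Atp5g1, Atp5g2 and Atp5g3, whose mature proteins are the same. Atp5g1 stood at 9.01, 9.23, 9.75 and 9.90, with animal 2 higher. Atp5g2 was the dimmest gene of the complex, at 6.82, 6.80, 6.93 and 7.71, high in sample 2-2. Atp5l, the g subunit of the membrane part, was next lowest, at 8.59 and 8.63 in animal 1 and 9.58 and 9.27 in animal 2. All of the c subunit genes stood higher in both samples of animal 2, at differences of 0.71 ± 0.20, 0.51 ± 0.41 and 0.30 ± 0.07 (SE), and none passed the test.

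The genes varied little between samples, and the bright ones least. Over the 79 genes above the bound, the median absolute log2 difference was 0.08 between samples 1-1 and 1-2, 0.14 between 2-1 and 2-2, and between 0.20 and 0.21 in the 4 pairs from different animals. Over all 4610 genes above the bound, these were 0.21, 0.35 and 0.38 to 0.40. In the same range of levels, from 9.62 to 12.24, the gap was smaller, with 0.09 and 0.15 within animals over 39 of these genes beside 0.12 and 0.20 over 940 genes of any kind. Between animals the medians there were 0.20 to 0.27 beside 0.27 to 0.31. Among the 79 genes, the median range over the 4 samples was 0.19 for the 26 brightest, 0.35 for the next 27 and 0.79 for the 26 dimmest. Near the top rank quantile normalization gives nearly equal values on every array, and its part in the small spread there was not tested. Deposited signals of Uqcrb ran from 10871 in sample 1-1 to 13786 in sample 2-2.

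The comparison of the animals asked which of these genes differed by more than the spread between samples of an animal. Both mice were untreated and carry the same labels, so it describes these samples. Of 147 probe sets of 84 of the genes that were above the bound on at least 2 arrays, 2 passed the test, both higher in animal 2 (limma with Benjamini-Hochberg adjustment over 9753 probe sets). Over the whole array 53 calls were made (0.543%), with 31 (0.318%) higher in animal 2 and 22 (0.226%) lower. Before adjustment, 42 of the 147 probe sets (28.6%) had a p under 0.05, 34 of them higher, beside 1818 of all tested (18.6%), of which 874 were higher. Among the 34, 1454771_at of Ndufb1, 1427904_s_at of Ndufaf7 and 1416112_at of Cox8a passed the bound only in animal 2. For these a difference follows from the way they entered the test. Several probe sets of a gene, such as those of Atp5k and Ndufa7, were counted separately.

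The called probe sets belonged to Atp5k and Ndufa3. Atp5k encodes the e subunit in the membrane part of ATP synthase, which takes part in forming dimers of the enzyme. On probe set 1422525_at it stood at 11.77 and 11.72 in animal 1 and 12.25 and 12.26 in animal 2, so the groups did not overlap, and it differed by 0.51 ± 0.07 (SE, adjusted p = 0.0444, limma). Its other probe sets, 1450640_x_at and 1434053_x_at, gave 0.33 ± 0.07 (adjusted p = 0.0872) and 0.24 ± 0.08 (adjusted p = 0.170), with the same sign and not called. Ndufa3, a small accessory subunit of complex I, stood at 11.06 and 11.15 in animal 1 and 11.74 and 11.78 in animal 2 on 1452790_x_at, a difference of 0.66 ± 0.10 (adjusted p = 0.0455). Its second bright probe set 1428464_at gave 0.69 ± 0.11 (adjusted p = 0.0540). Neither call was kept with sample 1-1 or with sample 1-2 left out, when 0 probe sets of these genes were called. The differences themselves were then 0.54 ± 0.11 and 0.50 ± 0.11 for Atp5k (adjusted p = 0.328 and 0.304) and 0.60 ± 0.14 and 0.69 ± 0.14 for Ndufa3 (adjusted p = 0.374 and 0.277). Without sample 2-1 or without sample 2-2 both calls were kept, but calls then rose over the whole array, in both directions.

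The 3 probe sets next in order among the higher ones were 1460506_s_at of Ndufc2 (0.77 ± 0.12, adjusted p = 0.0540), that of Ndufa3 already given, and 1416366_at of Ndufc2 (1.36 ± 0.24, adjusted p = 0.0621). Ndufc2 did not differ on its brightest probe set, at -0.02 ± 0.05. Lower in animal 2, with the smallest p values but not called, were Ndufc1 (-0.32 ± 0.08, adjusted p = 0.110), Atp5c1 (-0.28 ± 0.07, adjusted p = 0.117) and Ndufb9 (-0.28 ± 0.08, adjusted p = 0.154). Uqcrb (-0.13 ± 0.04, adjusted p = 0.155) and Ndufaf4 followed. The signs of Ndufc1, Atp5c1, Ndufb9 and Uqcrb turned positive on the deposited scale. There all named genes together had a median of 0.43, higher in animal 2.

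By complex, the median differences on the brightest probe sets, animal 2 minus animal 1, were 0.29 for complex V, 0.30 for complex II, 0.05 for complex I, -0.04 for complex III and -0.04 for complex IV, beside -0.01 for all named genes and 0.11 for the 92. The medians of complexes III and IV were positive on deposited values, at 0.47 and 0.36, beside 0.43 for all named genes. With arrays centred on their medians they were 0.16 and 0.06, beside 0.12. Over the 4610 genes above the bound on all 4 arrays the medians were 0.47 on deposited values, 0.16 on centred arrays and -0.05 after quantile normalization. In complex V, 14 of 17 genes had a positive difference (82.4%). The share was 49.7% among all named genes and 45.5% among those above the bound on all 4 arrays. In 13 of the 17 genes both samples of animal 2 stood above both of animal 1, and in 1, Atp5c1, below. Over all 92 genes these counts were 36 (39.1%) above and 15 (16.3%) below, beside 20.7% above and 20.2% below among all named genes. Most named genes lay below the bound. Among the 4610 above it on all 4 arrays, 22.9% stood above and 27.9% below, beside 41.8% and 17.7% among the 79 of these genes. In complex IV the counts were 2 and 5 of 19. Relative to the median of all named genes, complex V stood higher in animal 2 under each scaling tried, at 0.71 beside 0.43 on deposited values, 0.41 beside 0.12 with arrays centred on their medians and 0.29 beside 0.00 with an offset of 16. This was not particular to complex V. In the same order, complex II stood at 0.80, 0.49 and 0.30, and Cycs at 0.66, 0.35 and 0.21. The Ndufaf factors stood at 0.69, 0.38 and 0.10, and complex I at 0.48, 0.18 and 0.03. Complex II had a positive difference in 4 of 4 genes. On deposited values this was also so for 12442 of all 18193 named genes and 88 of the 92. After quantile normalization the dimmer probe sets of Cycs gave -0.08 on 1422484_at, 0.13 on 1422483_a_at and 0.20 on 1445484_at. For Sdha, 1426688_at gave -0.01. With 1 sample left out the median of complex V ran from 0.19, without sample 2-2, to 0.31, without sample 2-1, and leaving out sample 2-2 thus lowered it by over 1.5 times. None of these medians carries a test.

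Markers of other cells differed between the animals too. The summed signal of the 11 granule cell markers was 4150 and 5097 in animal 1 and 1816 and 2148 in animal 2, with 9 of 11 markers lower and 1 called, Zic1, a zinc finger factor of granule cells (-1.29 ± 0.18, adjusted p = 0.0402). Slc17a7, a defining marker of granule cell synapses, was below the bound on all arrays. That of the 12 Bergmann glia and astrocyte markers was 13954 and 13659 in animal 1 and 11550 and 10309 in animal 2. The 9 oligodendrocyte markers summed to 4777 and 4506 in animal 1 and to 3852 and 3057 in animal 2, and 7 of the 9 were lower. Of the 9, Cnp, a myelin enzyme, at 11.73, 11.72, 11.26 and 10.82, and Mbp, myelin basic protein, at 10.27, 9.96, 10.37 and 10.13, were above the bound on all 4 arrays. Mobp passed on 1 array, and the other 6, Mog, Mag and Opalin among them, on none, so 6 of the 7 lower markers lay below the bound. Cnp was lower in animal 2 (-0.69 ± 0.15, adjusted p = 0.0952, limma). Mbp was higher on dimmer probe sets, by 1.19 ± 0.22 on 1433532_a_at (adjusted p = 0.0621) and 1.37 ± 0.39 on 1419646_a_at (adjusted p = 0.151). None of these was called.

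The 11 Purkinje cell markers summed to 62891 and 63761 in animal 1 and to 72070 and 71615 in animal 2, and 9 of the 11 had a positive difference on the brightest probe set. Pcp2, a Purkinje cell protein, was called higher in animal 2 (0.57 ± 0.07, adjusted p = 0.0280, limma). Calb1, the calcium buffer calbindin, was called lower on its dimmer probe set 1448738_at, at 12.06, 12.00, 11.25 and 11.06 (-0.88 ± 0.10, adjusted p = 0.0273, limma). Its brightest probe set held 13.68 on all 4 arrays, the highest level of all named genes. Quantile normalization gives the top rank the same value on every array, so this probe set could not show a difference. That fixed value is also part of the sum of the markers. The ratios of 3′ to 5′ signal given above were lower in both samples of animal 2 than in both of animal 1, for Gapdh and for Actb. The part of these markers and ratios in the differences of Atp5k, Ndufa3, complex V and the other respiratory genes was not tested.

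**Figure D4:**
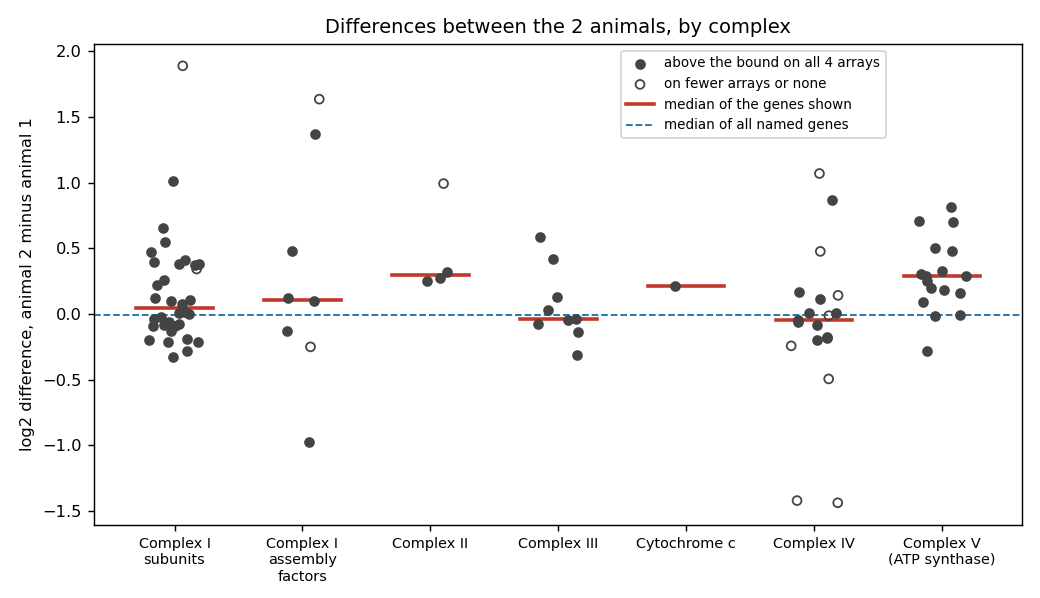
Log2 differences, animal 2 minus animal 1, of the 92 genes by complex, with filled points for genes above the bound on all 4 arrays, open points for the rest, red bars for the median of each complex and a dashed line for the median of all named genes. Complex V lies mostly above the dashed line, with a median of 0.29, while complexes III and IV lie around it.

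The answer for a gene depended on which of its probe sets was read. Of the 92 genes, 40 had 1 probe set and 52 had several, and in 16 of the latter the brightest lay above the bound on all 4 arrays while another lay below it on all 4. Of 39 genes with several probe sets that passed on every array, 21 held differences of both signs and 10 held differences more than 0.5 apart. Ndufc1, a small accessory subunit of complex I, gave -0.32 ± 0.08 on 1448284_a_at and 1.05 ± 0.25 on 1416285_at. Ndufs4, an accessory subunit whose loss impairs complex I in mice, gave -0.21 ± 0.25 on 1438166_x_at and 1.26 ± 0.31 on 1448959_at. Ndufab1, the mitochondrial acyl carrier protein, gave 0.55 ± 0.20 on 1428159_s_at and -0.61 ± 0.22 on 1428160_at. None of these passed the test.

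Other genes gave the same direction throughout. All 5 probe sets of Ndufa7, an accessory subunit of complex I, stood higher in animal 2, by 0.61 to 1.15, and none passed the test. On the brightest of them Ndufa7 stood at 8.85, 9.41, 10.34 and 9.95. The dimmest probe set above the bound was more positive than the brightest in 27 of the 39 genes (69.2%), beside 717 of 1208 genes of any kind (59.4%). The median gap was 0.23 beside 0.14. Leaving out probe sets shared by transcripts (names ending in _s_at or _x_at), 87 of the 92 genes were left, and Atp5c1, Cox8a, Ndufa12 and Uqcrq fell below the bound on some array.

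**Figure D5:**
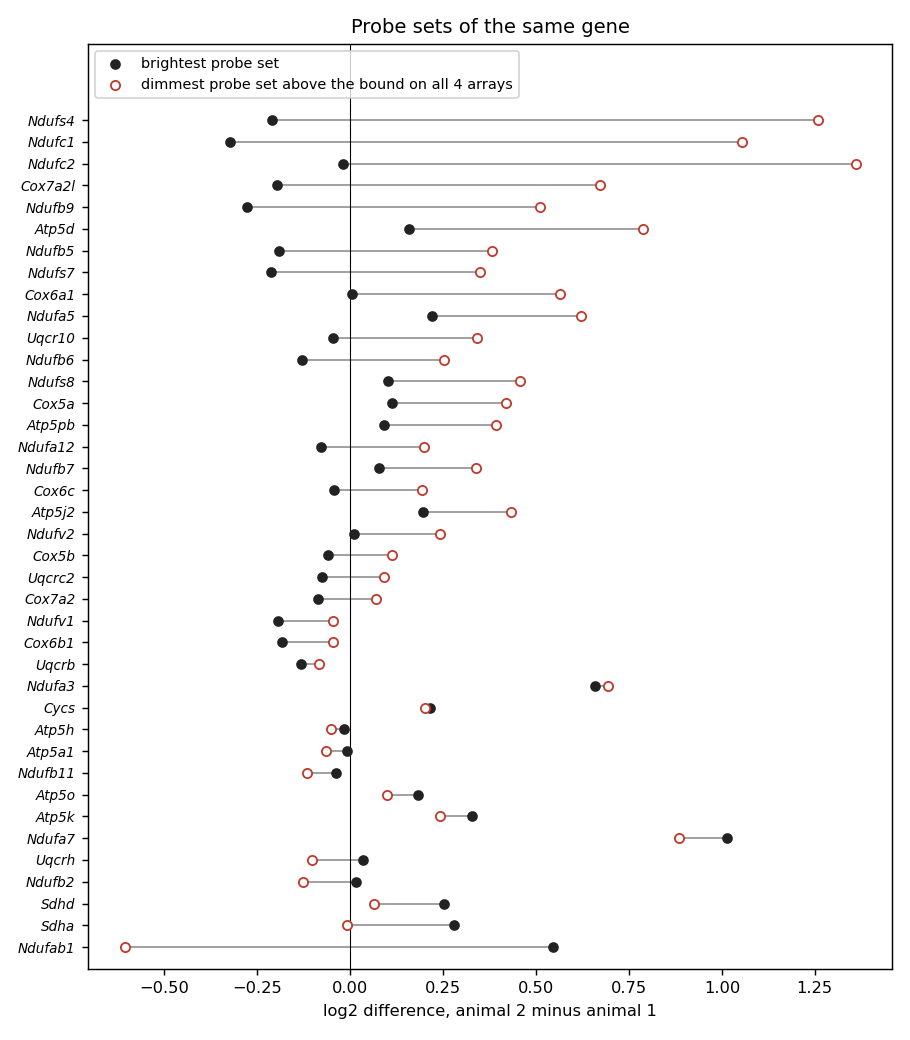
Log2 difference, animal 2 minus animal 1, on the brightest probe set (filled) and on the dimmest probe set above the bound on all 4 arrays (open) of the 39 genes with at least 2 such probe sets, joined by a line for each gene. Ndufs4, Ndufc1 and Ndufc2 at the top show the dimmer probe set more positive by over 1, and Ndufab1 at the bottom the reverse.

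Other genes of the pathway were counted from fixed lists. Assembly factors of the complexes beyond the Ndufaf genes were above the bound on all 4 arrays in 20 of 37 measured cases, on 1 to 3 arrays in 12 and on none in 5, and 0 were called between the animals by limma, with 6 of 27 tested genes (22.2%) holding at least 1 probe set at an unadjusted p under 0.05. Counted in the same way, this was so for 1412 of 6261 named genes (22.6%). The brightest of them was Cox17, a copper chaperone of complex IV, at 11.50, 11.64, 11.93 and 11.80, and the lowest was Lyrm7, a complex III factor, at -0.30, -1.53, -0.81 and -0.05.

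Regulators of mitochondrial biogenesis were above the bound on all 4 arrays in 7 of 12 cases, and 0 were called by limma, with 1 of 9 tested genes (11.1%) holding a probe set at an unadjusted p under 0.05, beside the 22.6% of all named genes. Ppargc1a, which encodes the coactivator PGC-1alpha, was the brightest, at 9.21, 9.33, 9.19 and 8.96. On this probe set it differed by -0.20 ± 0.22 (adjusted p = 0.675, limma). It was the gene counted, but through its dimmer probe set 1460336_at, which stood at 3.78, 3.04, 7.33 and 7.70 and was not called (adjusted p = 0.0779). That probe set entered the test only through animal 2, so a difference follows from the way it entered. Ppargc1a was followed by Yy1 (8.57 ± 0.20). Gabpa, the DNA-binding part of GABP, passed on 3 arrays, Ppargc1b on 2 and Pprc1 on 1. The probe sets of Nrf1, at 4.46, 4.05, 3.44 and 4.15, and of Gabpb1, at 4.69, 3.35, -1.53 and 3.04, were below the bound on all arrays, which limits these probe sets and does not show that the genes were silent.

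Carriers and kinases that move phosphate and ATP were bright in most cases, with 8 of 10 above the bound on all arrays and 0 called by limma, with 5 of 8 tested genes (62.5%) holding a probe set at an unadjusted p under 0.05, beside 22.6%. They were Ckb, Slc25a4 and Vdac1, higher in animal 2 on those probe sets, and Slc25a5 and Vdac3, lower. Vdac1 and Slc25a5 were counted only through dimmer probe sets. On their brightest they differed by 0.01 ± 0.07 and 0.13 ± 0.18 (SE). Any probe set can bring a gene into this count, so genes with more probe sets enter it more easily. Slc25a4, the adenine nucleotide translocator of heart and brain, stood at 12.77, 12.89, 13.00 and 12.94. Slc25a31, the testis form, and Ckmt2, the mitochondrial creatine kinase of heart and muscle, were below the bound on all arrays, with means of -0.54 and 0.39. The 13 subunits encoded in mitochondrial DNA were not analysed here.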

How the data were processed

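Arrays were run on 4 Purkinje cell samples, 2 from each of 2 mice. For every probe set on an array the authors deposited 1 intensity value, linear rather than logarithmic. The submitters' processing notes name GCOS, and its version, algorithm and scaling were not given in the labels. RNA was amplified and biotin-labelled by a 2-cycle protocol per the labels. Gene names came from the platform annotation: 34945 of 45101 had 1 symbol, 932 had several, 9160 had none there and 64 were controls. Columns of other samples numbered 0.

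From these values, signals under 0.1 were set to 0.1, log2 was taken and controls were left out. The arrays' means, trimmed by 2% at each end, were 55.8, 56.8, 72.5 and 87.6 and differed by 46.6% of their average, more than the 5% allowed, so quantile normalization in limma 3.58.1 (R 4.3.3) was applied. The background bound was the 95th percentile of 69 measured of 79 listed genes specific to other organs, 2 of which passed it on all 4 arrays. Means and SDs are over the 2 animals. The animals were compared (2 minus 1) by limma's lmFit and trended eBayes on the 9753 probe sets that passed the bound on 2 or more arrays. This left 2 residual degrees of freedom, and p-values were adjusted by Benjamini-Hochberg at 0.05. The fit was tested on simulated data with changes far larger than those called here, which does not show how it performs at such sizes. Motifs were searched in RefSeq promoters with Python 3.11.15. The number of arrays limits the precision, and no scan dates or scanner files were used here.

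Each of the 92 genes could be named. Those given in every sample were the 4 highest and 2 lowest of each complex, those not above the bound on all arrays, the isoforms, the called genes and the 5 probe sets with the smallest p in each direction, and others were named after their values were seen. The genes and lists were chosen with earlier results of these data known. Alternatives were other bounds, scalings, offsets and filters, other probe sets per gene, an untrended fit and leaving out each sample. An alternative bound from another list of organ-specific genes was not run, and the proteins of isoforms were not compared, since the tables these need were not used here.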

Additional observations from a re-analysis of the deposited data

Results flagged for a closer look

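In 5 of the 92 genes, 1 sample stood far from the other 3 by Dixon's criterion, a number that chance alone would give at about 1 in 20 genes. Ndufv3, a complex I subunit, was at 11.68 in sample 2-2 and at 11.89 to 11.94 in the others. Sdhb of complex II was at 11.18 in sample 2-2 and at 10.47 to 10.57 elsewhere. Sdhd, its membrane anchor, was at 8.07 in sample 2-1 and at 7.53 to 7.61 elsewhere. Cox8c, the testis isoform of complex IV, was at 6.27 in sample 2-1, the only array on which it passed the bound. Atp5g2, a gene of the ATP synthase c subunit, was at 7.71 in sample 2-2 and at 6.80 to 6.93 elsewhere. All of these samples were from animal 2, whose samples also lay further apart over all genes above the bound (0.35 beside 0.21 in animal 1).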

How the results depend on the processing

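The count of genes above the bound on all 4 arrays (79) ran from 72 to 84 over 10 alternatives. The count of called probe sets did not hold. It was 0 with the bound at the 90th percentile (an alternative chosen after seeing the data), 0 when _s_at and _x_at probe sets were left out of the test (also chosen after), 0 with no filter on dim probe sets and 0 with no mean-variance trend. Over all probe sets tested, these settings called 0.14%, 0.279%, 0.0111% and 0%. At an unadjusted p under 0.05 they gave 43, 28, 39 and 22 of 152, 102, 184 and 147 probe sets of the genes. The matching shares over all probe sets are not given here. The count of called probe sets of the genes was 5 with arrays centred on their median (3.4%, beside 1.14% of all probe sets). It was 4 with log2(signal + 16) (2.72% beside 0.872%) and 5 with a filter on all 4 arrays (3.68% beside 2.62%). It was 43 (29.3%), all higher in animal 2, on values as deposited, where 702 of all probe sets (7.19%) were called. With 1 sample left out it ran from 0 to 16 (0 without 1-1 or 1-2, 15 without 2-1, 16 without 2-2), and over all probe sets from 7 to 846; the lone sample is then assumed to vary like the other animal's. The median difference of the 92 genes (0.11) was 0.53 on values as deposited, 0.22 on centred arrays and 0.14 with the median over probe sets, and ran from 0.069 to 0.13 with 1 sample left out. The difference in spread between and within animals was 0.09 and became 0.39 on values as deposited. On values as deposited Ndufc1 reversed to 0.075, Atp5c1 to 0.16, Ndufb9 to 0.13 and Uqcrb to 0.32, and on centred arrays Uqcrb to 0.015. All named genes together had a median of 0.43 on deposited values and 0.12 on centred arrays, and the cause of the reversals was not tested. No paired analysis was possible because the samples form 1 group. Dim genes, near the bound, are limited by signal over background.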
